A study of Mus musculus with 30 samples.

Results

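The Myc network is described here through 9 genes, namely *Myc*, *Mycn* and *Mycl*, their shared partner *Max*, and the Max-binding repressors *Mxd1*, *Mxd3*, *Mxd4*, *Mxi1* and *Mnt*. Each was followed by the array feature (transcript cluster) that carries its symbol alone, and by the one of highest mean over the 30 arrays where there were several. The 9 genes are 9 of 22180 symbols that had such a cluster, 8 of them had 1 cluster, and *Mxi1* had a second. 2 mouse lines were compared (10 groups of 3 samples). iMOP cells are a clonal, self-renewing otic progenitor line that was immortalized by transient c-Myc expression in *Sox2*-expressing cells of the embryonic cochlea, and they grew with bFGF. mESCs are the ES-D3 embryonic stem cell line, grown with LIF on fibroblasts arrested in mitosis. In each line, cells received p183AT (miR-183, miR-96 and miR-182 with Atoh1), pAT (Atoh1), p183T (the 3 miRNAs) or pT (neither), each vector also encoding red fluorescent protein (RFP) behind the EF-1 alpha promoter, or were left untransfected (UT). Transfected cells were harvested 48 h later as RFP-positive cells, iMOP cells by jetPRIME transfection and sorting into lysis buffer, and mESCs by lipofection and sorting into medium. The Atoh1 of both Atoh1 vectors carried a Myc epitope tag, and the sources used here do not say whether the *Myc* probes can read the tag or the immortalizing transgene.

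Myc proteins are basic helix-loop-helix leucine zipper factors that bind DNA only as dimers with Max, at the E-box CACGTG and its variants, and raise transcription of genes for growth, ribosome synthesis and cell division. Mxd proteins, Mxi1 and Mnt compete for Max and bring the Sin3 corepressor to the same sites. In embryonic stem cells Myc acts downstream of LIF in self-renewal, and Mycn drives the proliferation of neural and sensory progenitors.

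Because these factors recognise a short DNA word, the start of each member gene was read for it. Of the 9 genes, 8 had a start in the RefSeq promoter table (build GRCm38.p6), and *Myc* had none there. Over 10 windows, each reaching 250 bases before and 20 bases after a start, CACGTG (the same on both strands) stood in 3, one each for *Mxd4*, *Mnt* and *Max*. It stood in 6.57% of all 32851 windows of that length in the table. CAGCTG, an E-box also read the same on both strands and recognised by proneural factors, stood in none of the 10 and in 14.2% of all windows, and CANNTG, which covers both words, stood in 68.9% of all windows. The windows below are shown for the 3 genes that hold CACGTG and for *Mycl*, the only member called when the Atoh1 vectors were pooled. *Mycl* was not called with pAT against pT in either line. *Mxd4* and *Mnt* were called higher with pT against UT in mESCs, but so were *Mycl* and *Mxi1*, whose windows hold no CACGTG. The call of *Mnt* was lost without some single arrays. Capitals mark CACGTG in the first 3 and the single CANNTG match in *Mycl*, and a match is a description of the letters only.
*Mxd4*, chr5:34187691-34187960, minus strand: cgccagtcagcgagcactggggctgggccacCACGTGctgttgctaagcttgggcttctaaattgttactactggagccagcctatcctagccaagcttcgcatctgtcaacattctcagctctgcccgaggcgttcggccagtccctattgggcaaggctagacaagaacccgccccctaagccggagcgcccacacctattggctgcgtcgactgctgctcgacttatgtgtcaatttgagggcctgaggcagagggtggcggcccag
*Mnt*, chr11:74830674-74830943, plus strand: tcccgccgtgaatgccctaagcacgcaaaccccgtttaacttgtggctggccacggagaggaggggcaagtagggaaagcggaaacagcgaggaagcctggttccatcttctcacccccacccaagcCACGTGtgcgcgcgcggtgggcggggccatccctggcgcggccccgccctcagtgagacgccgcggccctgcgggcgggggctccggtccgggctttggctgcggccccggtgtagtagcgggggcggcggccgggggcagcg
*Max*, chr12:76962229-76962498, minus strand: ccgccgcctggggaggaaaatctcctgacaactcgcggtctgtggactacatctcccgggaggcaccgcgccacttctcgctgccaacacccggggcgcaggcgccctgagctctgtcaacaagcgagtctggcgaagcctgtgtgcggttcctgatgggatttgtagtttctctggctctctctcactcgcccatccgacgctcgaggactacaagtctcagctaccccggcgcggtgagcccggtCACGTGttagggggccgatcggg
*Mycl*, chr4:122995681-122995950, plus strand: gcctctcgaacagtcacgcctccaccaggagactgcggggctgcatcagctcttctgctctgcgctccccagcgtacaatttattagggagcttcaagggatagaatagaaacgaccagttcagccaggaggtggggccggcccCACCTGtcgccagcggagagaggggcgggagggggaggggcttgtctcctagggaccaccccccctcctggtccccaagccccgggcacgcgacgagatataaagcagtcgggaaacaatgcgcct
The first base of the word lay at -219 in *Mxd4*, -123 in *Mnt* and -3 in *Max*, counted from the base before the start as -1.

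Values are log2 RMA signals as deposited, and a difference of 1 is a doubling of signal. Array medians lay between 4.37 and 4.69, the correlation between replicates between 0.975 and 0.993, and a cluster with a group mean under log2 5 is called dim. The labels call the samples of a group biologically distinct and say no more of their origin, so a p-value covers the spread among these samples only. Differences were tested with limma over 25341 clusters and adjusted by Benjamini and Hochberg, with calls at an adjusted p under 0.05, and intervals are 95% intervals of the difference. The lines were checked against the markers of their labels. Per array, 8 pluripotency genes averaged 4.17 to 4.21 in UT iMOP cells and 8.59 to 8.70 in UT mESCs, whereas 7 otic progenitor genes averaged 7.93 to 8.05 in UT iMOP cells and 5.73 to 5.94 in UT mESCs. Of the 7 otic genes, 5 were called higher and 2 lower in UT iMOP cells, and 4 were higher and 2 lower with each vector. *Dppa5a* was the 1 pluripotency marker dim in UT mESCs, at 4.74 ± 0.38 (SD, n = 3). *Sox2*, which marks both otic progenitors and stem cells, was at 8.64 ± 0.15 in UT iMOP cells and 10.70 ± 0.09 in UT mESCs (SD, n = 3 each). Of 10 fibroblast genes, 9 were dim in UT iMOP cells and 6 in UT mESCs, and their mean per array was 4.28 to 4.41 in UT iMOP cells and 4.53 to 4.66 in UT mESCs, which grew on fibroblasts. The part of feeder RNA in the line comparisons was not tested. In such bulk samples, fewer cells of a type and less RNA per cell cannot be told apart.

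*Myc* and *Mycn*, the Myc factors of proliferating and stem cells, were both lower in iMOP cells than in mESCs in all 5 conditions, although iMOP cells owe their immortalization to c-Myc. *Mxi1* and *Mxd4*, which encode repressors that compete for Max, were higher in iMOP cells throughout, and *Mxd3* was higher in all 4 transfected conditions. In UT cells 2 members were called higher and 4 lower in iMOP cells, beside 18.3% of all clusters called higher and 39.2% called lower. With a vector, 3 members were called higher in each condition, beside 21.8% (pT), 21.2% (pAT), 23% (p183T) and 18.1% (p183AT) of all clusters, and 4 were called lower (3 with p183AT), beside 36.3%, 38.2%, 38.6% and 36.7% in the same order. The direction of the background in UT cells depended on the scaling between arrays. It was 28% higher and 27.2% lower after quantile normalization over the 30 arrays, and 33.2% higher and 24.2% lower with arrays centred on their medians.

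*Myc* (transcript cluster 17311846) was at 6.35, 6.44 and 6.27 in UT iMOP cells, against 8.26, 8.09 and 8.10 in UT mESCs. The difference was -1.80 (standard error 0.12, interval -2.07 to -1.53, adjusted p = 4.7e-07 from limma), or 3.48-fold lower signal in iMOP cells. The 15 iMOP arrays lay between 6.25 and 6.63 and the 15 mESC arrays between 7.50 and 8.48, so the lines did not overlap. Group means ran over 6.30 to 6.51 in iMOP cells and 7.89 to 8.16 in mESCs, and the line difference kept to -1.66 with pT, -1.64 with pAT, -1.59 with p183T and -1.69 with p183AT (highest adjusted p = 2.5e-05 from limma). After quantile normalization it was -1.46 in UT cells and between -1.12 and -1.0 in transfected cells, still called in each.

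*Mycn* (cluster 17279998) separated the lines more widely. It was at 3.89, 3.86 and 4.44 in UT iMOP cells, against 7.42, 7.47 and 7.18 in UT mESCs, a difference of -3.29 (standard error 0.17, interval -3.67 to -2.91, adjusted p = 6.7e-08 from limma). UT iMOP cells were dim for *Mycn*, so the size of this difference rests on a value near background. In transfected cells all 12 iMOP arrays lay above all 3 UT iMOP arrays. With pT alone, 26.7% of all clusters had every pT array above every UT array in iMOP cells, and no share was computed over all vectors. The line difference of *Mycn* was -2.43 with pT, -2.17 with pAT, -2.17 with p183T and -2.32 with p183AT, each called. Even the highest iMOP array, at 5.60, stayed below the lowest mESC array, at 7.18.

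*Mycl* (cluster 17418119), the third Myc factor, differed little between the lines. It was at 4.20, 4.60 and 4.41 in UT iMOP cells, against 4.52, 3.64 and 4.40 in UT mESCs, a difference of 0.22 (interval -0.26 to 0.70, adjusted p = 0.42 from limma), and both groups were dim. In the transfected conditions the difference lay between -0.20 with pAT and 0.19 with p183AT, and none was called. Quantile normalization and median centring each made 2 of the 5 calls, higher in iMOP cells with p183T and p183AT, at 0.40 and 0.58 after quantile normalization.

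*Max* (cluster 17282090), the obligate partner of the Myc proteins and a partner of the repressors, some of which also pair with Mlx, was at 8.13, 8.49 and 8.51 in UT iMOP cells, against 9.28, 8.89 and 9.08 in UT mESCs. The difference was -0.70 (standard error 0.15, interval -1.04 to -0.36, adjusted p = 0.0025 from limma), and it lay between -0.83 and -0.48 in the transfected conditions, all called, yet none of the 5 calls was kept after quantile normalization, where the values ran from -0.29 to 0.20 and 2 of them turned positive. The median of all clusters was itself -0.20 in UT cells and -0.10 with pT. With pAT the call was lost without mESC replicate 1 and without iMOP replicate 1 or 2, and with p183AT without replicate 2 or 3 of mESCs and without replicate 1 or 2 of iMOP cells, at -0.45 to -0.38 with pAT and -0.47 to -0.40 with p183AT.

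Of the Max-binding repressors, *Mxi1* (also called Mxd2) was higher in iMOP cells by over 1 log2 unit in every condition. Its brighter cluster (17360331) was at 8.94, 8.88 and 8.93 in UT iMOP cells, against 6.69, 6.95 and 6.48 in UT mESCs, a difference of 2.21 (standard error 0.14, interval 1.90 to 2.52, adjusted p = 3.2e-07 from limma). The second cluster (17365690) gave 2.61 in the same comparison (interval 2.28 to 2.94). All 15 iMOP arrays lay above all 15 mESC arrays for both clusters, and the difference of the brighter one lay between 1.01 and 1.42 in the transfected conditions, called in each, and between 1.66 and 2.03 after quantile normalization.

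*Mxd4* (cluster 17447218), a repressor known from differentiating cells, was at 6.50, 6.91 and 6.88 in UT iMOP cells, against 5.38, 5.09 and 5.43 in UT mESCs. The difference was 1.47 (standard error 0.15, interval 1.13 to 1.81, adjusted p = 1.4e-05 from limma), and 0.73 to 0.99 in the transfected conditions, called in each, with 1.24 to 1.51 there after quantile normalization. The iMOP arrays ran from 6.50 to 7.28 and the mESC arrays from 5.09 to 6.35. Over all clusters, 6.31% had every iMOP array above every mESC array, as *Mxd4* and *Mxi1* did, and 19.3% had every iMOP array below, as *Myc*, *Mycn* and *Max* did.

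*Mxd3* (cluster 17292828), the member of the repressor group known from S phase, showed no called difference in UT cells, with 5.63, 5.92 and 5.94 in iMOP cells, against 5.99, 5.48 and 5.48 in mESCs (difference 0.18, interval -0.18 to 0.55, adjusted p = 0.37 from limma), though median centring called it there (0.50). With pT it was at 6.65, 7.48 and 6.96 in iMOP cells, against 5.77, 5.70 and 5.67 in mESCs, a difference of 1.32 (interval 0.87 to 1.77, adjusted p = 0.00037 from limma). The other vectors gave 0.88 (pAT), 1.39 (p183T) and 1.12 (p183AT), each called, and over the 4 vectors the values were 1.34 to 1.89 after quantile normalization. Only the UT arrays of the lines overlapped.

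*Mxd1* and *Mnt* differed by less than 1 log2 unit in every condition. *Mxd1* (cluster 17468511), a repressor induced in differentiation, was at 6.43, 6.58 and 6.40 in UT iMOP cells, against 6.95, 6.90 and 6.81 in UT mESCs (difference -0.42, interval -0.68 to -0.15, adjusted p = 0.012 from limma). It was called lower in 4 of the 5 conditions and in none after quantile normalization or median centring, and its difference was positive (0.03 to 0.19) with pT, p183T and p183AT after quantile normalization. Without pT replicate 2 or 3 of mESCs, replicate 1 of pAT iMOP cells, or replicate 3 of p183T in either line, its call in that condition was lost as well, and with p183AT it was called once mESC replicate 1 was left out (-0.56). *Mnt* (cluster 17252817), which is made in most cells, was at 6.21, 6.39 and 6.48 in UT iMOP cells, against 6.63, 6.31 and 6.24 in UT mESCs, and its difference was not called in any condition (-0.41 to -0.03, and 0.16 to 0.34 after quantile normalization), save with pT when all 30 arrays were fitted together (-0.41, adjusted p = 0.045) or iMOP replicate 3 was left out (-0.58, adjusted p = 0.047).

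**Figure D1:**
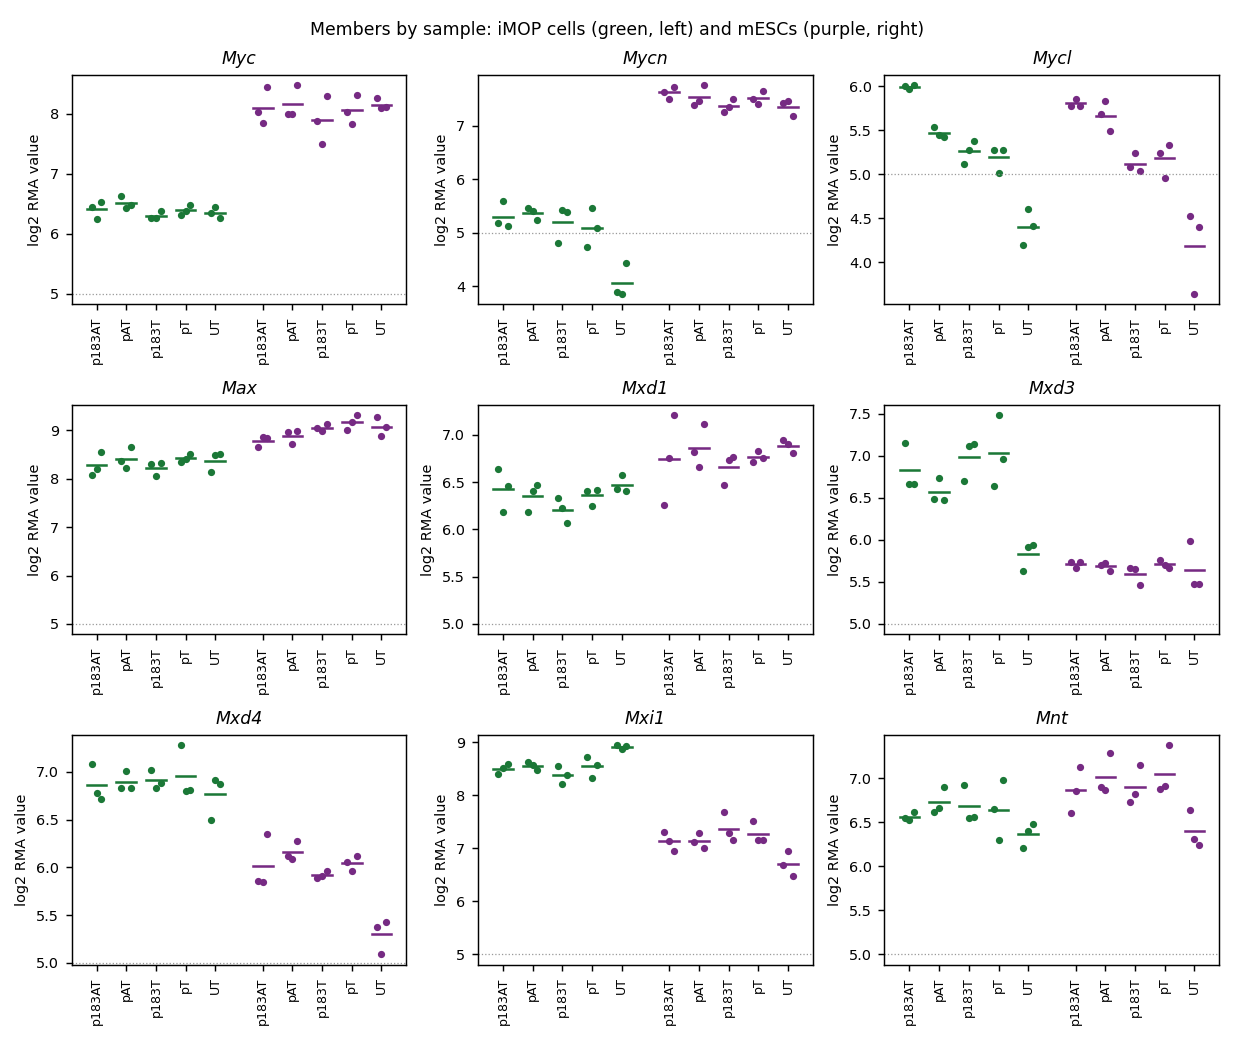
Log2 RMA signal of the 9 genes on each of the 30 arrays, one panel a gene, with iMOP cells in green on the left and mESCs in purple on the right. Points are arrays, bars are group means, the dotted line is log2 5, and the vertical scale differs between panels. *Myc*, *Mycn* and *Max* lie lower on every iMOP array (for *Max*, 2 of the 5 differences turn positive after quantile normalization), and *Mxd4* and *Mxi1* lie higher.

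**Figure D2:**
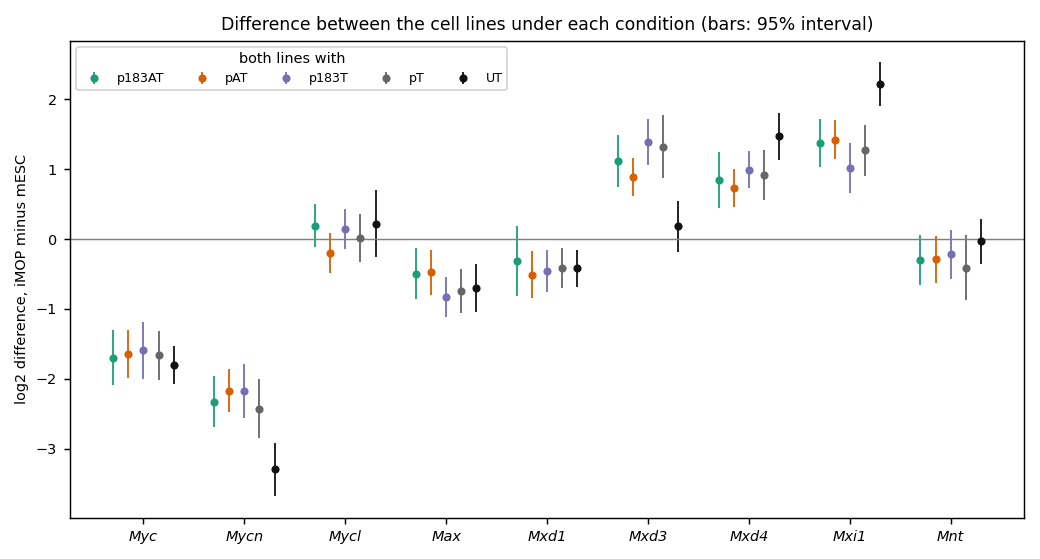
Difference in log2 signal, iMOP minus mESC, under each of the 5 conditions, with 95% intervals from limma. *Mycn* is at -3.29 in untransfected cells and between -2.43 and -2.17 in transfected cells, and *Mxd3* is at 0.18 in untransfected cells and between 0.88 and 1.39 in transfected ones. The negative values of *Max* and *Mxd1* are those that reach 0.20 and 0.19 after quantile normalization.

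The control vector pT was compared with UT cells to see what transfection with an RFP plasmid did by itself. *Mycl* rose in both lines and *Myc* did not pass the test in either. Beyond *Mycl*, *Mycn* and *Mxd3* rose in iMOP cells and *Mxd4* and *Mnt* rose in mESCs. The brighter cluster of *Mxi1* was called in opposite directions, and both calls were lost after quantile normalization. The response itself differed between the lines for *Mycn*, *Mxd3*, the brighter cluster of *Mxi1* and, less firmly, *Mxd4*. The responses of *Mnt* and of the second *Mxi1* cluster were not shown to differ. UT cells differed from pT cells in the reagent, the plasmid and the sort, and these cannot be told apart. In iMOP cells 3 members were called higher and 1 lower, beside 19.4% and 21.9% of all clusters, and 26.7% of all clusters had every pT array above every UT array. In mESCs 4 members were called higher and 0 lower, beside 7.07% and 6.07%, and 15.7% of all clusters had every pT array above every UT array.

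In iMOP cells, *Mycn* was at 4.73, 5.47 and 5.09 with pT, against 3.89, 3.86 and 4.44 in UT cells, a rise of 1.03 (standard error 0.21, interval 0.59 to 1.48, adjusted p = 0.00065 from limma). *Mxd3* was at 6.65, 7.48 and 6.96 with pT, against 5.63, 5.92 and 5.94 in UT cells, a rise of 1.20 (interval 0.78 to 1.61, adjusted p = 9.7e-05 from limma). In neither did the groups overlap, although *Mycn* stayed close to log2 5 with pT. In mESCs, *Mycn* (0.17, interval -0.10 to 0.44) and *Mxd3* (0.06, interval -0.21 to 0.34) were not called, and the test of the difference between the lines gave 0.87 for *Mycn* (adjusted p = 0.0093 from limma) and 1.13 for *Mxd3* (adjusted p = 0.00059 from limma). Over all clusters, 35.6% were called in that test of the difference, 15.6% higher in iMOP cells and 20% lower.

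*Mycl* was at 5.28, 5.01 and 5.28 with pT in iMOP cells, against 4.20, 4.60 and 4.41 in UT iMOP cells, a rise of 0.79 (interval 0.50 to 1.07, adjusted p = 0.00014 from limma). In mESCs it was at 5.25, 4.96 and 5.34 with pT, against 4.52, 3.64 and 4.40 in UT mESCs, a rise of 0.99 (interval 0.60 to 1.39, adjusted p = 0.0018 from limma). The UT arrays of both lines were all under log2 5, and the difference between the responses was -0.21 (interval -0.68 to 0.26, adjusted p = 0.51 from limma).

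In mESCs, *Mxd4* was at 6.06, 5.96 and 6.12 with pT, against 5.38, 5.09 and 5.43 in UT cells, a rise of 0.75 (interval 0.46 to 1.04, adjusted p = 0.0015 from limma). *Mnt* was at 6.87, 6.91 and 7.37 with pT, against 6.63, 6.31 and 6.24 in UT cells, a rise of 0.66 (interval 0.27 to 1.04, adjusted p = 0.025 from limma). In iMOP cells the same genes gave 0.20 (interval -0.14 to 0.53) and 0.28 (interval -0.07 to 0.62), not called. The difference between the responses, iMOP minus mESC, was called for *Mxd4* (-0.55, adjusted p = 0.044 from limma) and not for *Mnt* (-0.38, adjusted p = 0.25 from limma). That of *Mxd4* was not called without any one of 7 of the 12 arrays (mESC UT replicate 2, mESC pT replicates 1 and 3, iMOP UT replicates 2 and 3, iMOP pT replicates 2 and 3), at -0.54 to -0.45, nor after quantile normalization, at -0.20. The rise of *Mnt* was not called without mESC UT replicate 2 (0.61) or 3 (0.58) or mESC pT replicate 3 (0.49).

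*Mxi1* was at 8.72, 8.33 and 8.58 with pT in iMOP cells, against 8.94, 8.88 and 8.93 in UT iMOP cells, a difference of -0.38 (interval -0.66 to -0.09, adjusted p = 0.032 from limma). In mESCs it was at 7.52, 7.15 and 7.15 with pT, against 6.69, 6.95 and 6.48 in UT mESCs, a rise of 0.57 (interval 0.22 to 0.92, adjusted p = 0.033 from limma). The responses differed by -0.94 between the lines (interval -1.38 to -0.51, adjusted p = 0.00092 from limma). Each call within a line was fragile. In iMOP cells it was lost without any array but pT replicate 1 (-0.39 to -0.27) and after quantile normalization (-0.17), and in mESCs without UT replicate 1 or 3 or pT replicate 1 (0.44 to 0.56) and after quantile normalization (0.46). The clusters of the gene also disagreed in mESCs, since the second one gave -0.47 in iMOP cells (adjusted p = 0.03 from limma) and -0.05 in mESCs (adjusted p = 0.92), with a difference of -0.42 between the lines (adjusted p = 0.24).

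*Myc* was at 6.31, 6.38 and 6.48 with pT in iMOP cells, against 6.35, 6.44 and 6.27 in UT iMOP cells (difference 0.04, interval -0.22 to 0.30). In mESCs it was at 8.02, 7.83 and 8.31 with pT, against 8.26, 8.09 and 8.10 in UT mESCs (difference -0.09, interval -0.53 to 0.34). *Max* (0.05 and 0.09) and *Mxd1* (-0.11 and -0.12, iMOP cells and then mESCs) were not called either. Markers moved beside these values. The otic genes averaged 7.30 to 7.74 per array in pT iMOP cells and 7.93 to 8.05 in UT iMOP cells, and the pluripotency genes averaged 8.19 to 8.38 in pT mESCs and 8.59 to 8.70 in UT mESCs. In iMOP cells, 3 of the 8 pluripotency genes rose with pT and 0 fell (median 0.29), with array means of 4.25 to 4.63 in pT cells and 4.17 to 4.21 in UT cells. Of these 8, 7 were dim in UT iMOP cells and 6 in pT iMOP cells. Of the 7 otic genes, 2 rose and 4 fell with pT in iMOP cells, where 19.4% of all clusters were called higher and 21.9% lower. The fibroblast genes averaged 4.45 to 4.59 in pT iMOP cells and 4.28 to 4.41 in UT iMOP cells, and 4.62 to 4.70 in pT mESCs and 4.53 to 4.66 in UT mESCs, and the part of any of these in the responses was not tested.

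**Figure D3:**
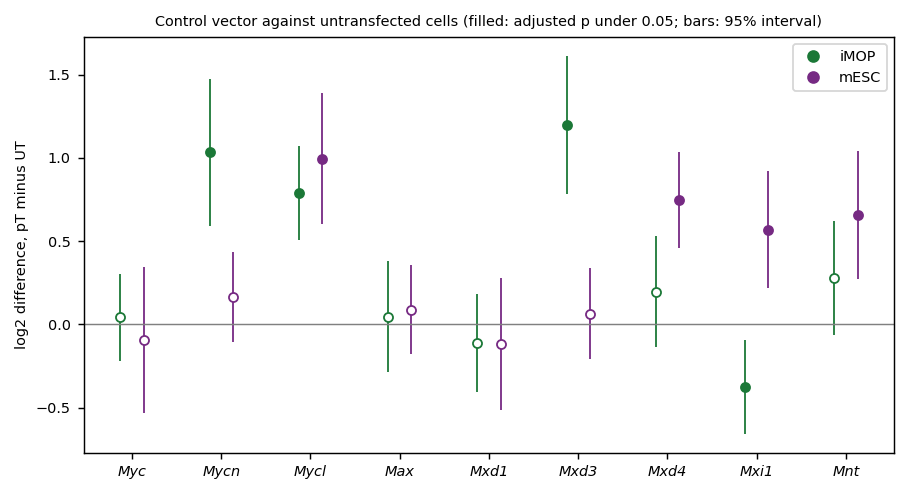
Difference in log2 signal between pT and untransfected cells for the 9 genes, iMOP cells in green and mESCs in purple, with 95% intervals and filled points for an adjusted p under 0.05. *Mycl* is filled in both lines, *Mycn* and *Mxd3* in iMOP cells, and *Mxd4* and *Mnt* in mESCs. *Mxi1* (brighter cluster) has opposite signs (-0.38 and 0.57), and both of its calls are lost after quantile normalization.

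The other vectors were compared with pT to separate Atoh1, a proneural transcription factor needed for hair cells, and the miR-183 family, which is made in hair cells, from transfection. The clusters of the vector genes were higher as labelled when vectors were pooled. *Atoh1* was 1.25 higher with the Atoh1 vectors in each line (adjusted p = 8.3e-05 in iMOP cells and 9.4e-06 in mESCs, from limma). With pAT against pT it was not called in iMOP cells (1.04, adjusted p = 0.066 from limma) but was in mESCs (1.0, adjusted p = 0.0049). Its cluster was also called higher with pT against UT in iMOP cells (0.60, adjusted p = 0.015), though pT carries no Atoh1. The 3 hairpins of the cluster (*Mir183*, *Mir96*, *Mir182*) were 3.20 to 3.78 higher with the miR-183 vectors in iMOP cells and 4.04 to 5.58 higher in mESCs. Among the 9 members, only *Mycl* was called in any comparison between vectors.

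In iMOP cells *Mycl* was at 6.0, 5.97 and 6.02 with p183AT, 5.54, 5.45 and 5.43 with pAT, 5.12, 5.28 and 5.38 with p183T, and 5.28, 5.01 and 5.28 with pT. In mESCs it was at 5.78, 5.86 and 5.78 with p183AT, 5.68, 5.84 and 5.49 with pAT, 5.08, 5.25 and 5.04 with p183T, and 5.25, 4.96 and 5.34 with pT. Every array with Atoh1 lay above every transfected array without it in both lines. With p183AT against pT, *Mycl* rose by 0.80 in iMOP cells (standard error 0.14, interval 0.52 to 1.09, adjusted p = 0.018 from limma), 1 of 9 members beside 0.138% of clusters called. The same comparison in mESCs gave 0.62 (interval 0.23 to 1.02, adjusted p = 0.17 from limma), 0 of 9 members beside 1.05% of clusters called. With pAT against pT, it gave 0.28 in iMOP cells (adjusted p = 0.74 from limma, 0.0197% of clusters called) and 0.49 in mESCs (interval 0.09 to 0.88, adjusted p = 0.42 from limma, 0.797% of clusters called).

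Averaged over both Atoh1 vectors against both vectors without Atoh1, *Mycl* rose by 0.51 in iMOP cells (interval 0.31 to 0.71, adjusted p = 0.024 from limma) and by 0.58 in mESCs (interval 0.31 to 0.86, adjusted p = 0.022 from limma). It was 1 of 9 members called in each line, beside 0.331% of clusters in iMOP cells and 2.9% in mESCs. All arrays with Atoh1 lay above those without for 0.442% of clusters in iMOP cells and 1.91% in mESCs. Of the line markers, 3 of 8 pluripotency genes fell and 1 of 10 fibroblast genes rose with Atoh1 in mESCs, and 0 of either in iMOP cells, and their part in the value of *Mycl* was not tested. The responses of the lines differed by -0.08 (interval -0.41 to 0.25, adjusted p = 0.90 from limma, 1.39% of clusters called). All these levels lie within about 1 log2 unit of the dim range, and *Mycl* was not tested where dim clusters were left out. The pooled call in iMOP cells was lost without any one array of pAT, replicate 1 or 2 of p183T, or replicate 2 or 3 of p183AT (0.47 to 0.52), and in mESCs without pT replicate 2, pAT replicate 2, or p183T replicate 1 or 3 (0.53 to 0.57). The p183AT call in iMOP cells was lost without pT replicate 2 or any one array of p183AT (0.71 to 0.82), and when only the compared arrays were fitted (0.80, adjusted p = 0.38).

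The other 8 members lay between -0.31 (*Mxd3*) and 0.19 (*Mycn*) for the pooled Atoh1 comparison in iMOP cells, and between -0.27 (*Max*, interval -0.46 to -0.08, adjusted p = 0.13) and 0.16 (*Myc*) in mESCs. *Myc* itself, whose probes might have read the tag of Atoh1, gave 0.11 (interval -0.07 to 0.30) in iMOP cells and 0.16 (interval -0.15 to 0.46) in mESCs, neither called. With the miR-183 vectors against those without, 0 of 9 members were called in either line by limma, where 0.0158% of clusters were called in each. At an unadjusted p under 0.05 there were 1 in iMOP cells and 0 in mESCs, beside 1102 and 893 of all 25341 clusters. Differences ran from -0.16 (*Max*) to 0.30 (*Mycl*, interval 0.10 to 0.50) in iMOP cells and from -0.15 (*Mnt*) to 0.04 (*Mxi1*) in mESCs. The second *Mxi1* cluster gave -0.35 in iMOP cells (interval -0.60 to -0.10) and 0.05 in mESCs, neither called. With p183T against pT, 0 of 9 were called in either line, beside 0.0118% of clusters in each. An unadjusted p under 0.05 was reached by 0 of 9, beside 980 clusters in iMOP cells and 591 in mESCs. Differences of the responses between the lines were called for 0 of 9 members with pAT (0.312% of clusters called), p183T (0%) and p183AT (0.32%) against pT.

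**Figure D4:**
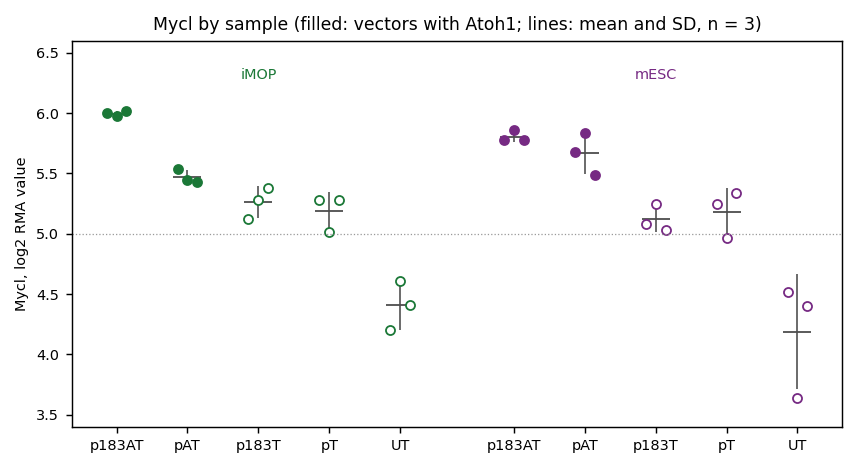
Log2 signal of *Mycl* on each array by group, iMOP cells on the left and mESCs on the right, filled for vectors that carry Atoh1, with the mean and SD (n = 3) as lines and log2 5 dotted. Means are 6.0 (p183AT), 5.47 (pAT), 5.26 (p183T), 5.19 (pT) and 4.41 (UT) in iMOP cells, and 5.81, 5.67, 5.12, 5.18 and 4.19 in mESCs in the same order.

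Genes around the network were followed by lists of known roles. In UT cells the counts below stand beside 18.3% of all clusters called higher and 39.2% called lower in iMOP cells, or 28% and 27.2% after quantile normalization. In UT cells, of 4 other genes of the Max and Mlx network, 0 were called higher and 3 lower in iMOP cells (median -0.99, beside -0.20 over all clusters). *Mga*, a Max partner with a second DNA-binding domain, was at 8.27 ± 0.13 in UT iMOP cells and 10.16 ± 0.20 in UT mESCs (SD, n = 3 each), a difference of -1.89 (adjusted p = 1.1e-06 from limma). *Mlxipl*, the glucose-responsive factor ChREBP, gave -1.20, its partner *Mlx* -0.78, and *Mlxip*, the other Mondo factor, -0.30 (adjusted p = 0.10), and the call of *Mlx* was lost after quantile normalization (-0.42) and median centring (-0.46).

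Of 14 co-factors, 2 were higher and 8 lower in UT iMOP cells (4 and 3 after quantile normalization). *Ep400*, a remodeller that Myc recruits, was 2.04 higher, whereas *Kat5* (-1.27), an acetyltransferase of the same complex, *Wdr5* (-1.05), a chromatin anchor of Myc, and *Sin3a* (-0.88), the corepressor of the Mxd proteins, were lower. Of 9 genes for the turnover of Myc proteins, 2 were higher and 5 lower (3 and 4 after quantile normalization). *Usp28* (-1.51), a deubiquitinase that spares Myc, the kinase *Pim1* (-1.33) and *Aurka* (-0.91), a kinase that protects Mycn, were lower, and *Gsk3b* (1.18), the kinase that marks Myc for destruction, was higher.

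Known targets of Myc did not move as 1 group between the lines. Of 13 cell cycle targets, 0 were higher and 9 lower in UT iMOP cells (median -0.74), and 1 was higher and 6 lower after quantile normalization. *Tert*, the telomerase subunit, was at 3.48 ± 0.16 in UT iMOP cells and 6.51 ± 0.23 in UT mESCs (SD, n = 3 each), and *Ccne1* (-2.11), *Cks2* (-1.73) and *Ccnd1* (-1.49) were also lower. Of 21 ribosome biogenesis genes, 6 were higher and 6 lower (median -0.07), and 9 and 2 after quantile normalization, with the median then at 0.19. *Rrp9* (-1.23) was lower, and *Wdr74* (1.05), *Rrs1* (0.95) and *Pes1* (0.90) were higher. Of 20 metabolic and translation genes, 8 were higher and 6 lower (median -0.03, and 0.33 after quantile normalization), among them *Eif4a1* (2.13), an RNA helicase of translation, and *Ahcy* (-2.47), an enzyme of the methionine cycle. Of 11 genes listed as repressed by Myc, among them *Cdkn2a*, whose product Arf is instead known to be induced where Myc is high, 3 were higher and 7 lower (median -0.56), and 4 and 5 after quantile normalization. The cyclin-dependent kinase inhibitor *Cdkn1a* (p21) was 3.29 lower on the log2 scale, at 5.79 ± 0.46 in UT iMOP cells and 9.08 ± 0.41 in UT mESCs (SD, n = 3 each), and *Itga6* (-1.55) was lower too. *Gas1* (2.81) and *Cdkn2a* (2.53) were higher.

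After transfection with pT, more genes fell than rose in iMOP cells among those for ribosome biogenesis and Myc turnover, beside 19.4% of all clusters called higher and 21.9% called lower (23.4% and 18.8% after quantile normalization). Of 21 ribosome biogenesis genes, 3 rose and 11 fell (median -0.44, beside 0.09 over all clusters, and 5 and 10 after quantile normalization). *Dkc1* (-1.56), which modifies ribosomal RNA, and *Gnl3* (-1.17) fell, while *Ppan* (1.75) and *Rrp9* (1.25) rose. Of 9 turnover genes, 1 rose and 6 fell (median -0.86, and 3 and 6 after quantile normalization), with *Usp37* (-1.76), *Huwe1* (-1.55), *Usp28* (-1.37) and *Gsk3b* (-1.17) falling. Of 20 metabolic genes, 6 rose and 8 fell, and *Mga* fell by 1.79, to 6.48 ± 0.61 in pT iMOP cells, against 8.27 ± 0.13 in UT iMOP cells (SD, n = 3 each). *Mlxipl* rose with pT in iMOP cells (0.41, lost after median centring) and in mESCs (0.74), and *Mlxip* rose in mESCs (0.44, lost after quantile normalization).

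In mESCs, of the same 11 genes of the repressed list, 5 rose with pT and 0 fell (median 0.50, beside -0.02 over all clusters), where 7.07% of all clusters were called higher and 6.07% lower. *Gadd45g*, a growth arrest gene, was at 7.79 ± 0.06 with pT and 5.70 ± 0.05 in UT mESCs (SD, n = 3 each), a rise of 2.09 (adjusted p = 2.0e-07 from limma), and *Ndrg2* (1.26), *Cdkn1a* (1.01) and *Pdgfrb* (0.70) followed. *Pdgfrb* is also on the fibroblast list, so its rise counts in both lists. Of the 10 fibroblast genes, 2 were called higher and 0 lower in the same comparison, and the part of feeder RNA in these rises was not tested. Of the 21 ribosome biogenesis genes, 1 rose and 4 fell there, of the 20 metabolic genes 2 rose and 1 fell, and of the 14 co-factors limma called 0. An unadjusted p under 0.05 was reached by 4 of the 14, beside 6439 of all 25341 clusters. Genes of the repressed list were also called with the Atoh1 vectors. In iMOP cells *Cdkn1a* rose by 1.05 with the Atoh1 vectors (adjusted p = 0.0021 from limma), *Gadd45g* rose by 0.89 (adjusted p = 0.044) and *Gas1* fell by 0.59 (adjusted p = 0.043). The call of *Gadd45g* was lost after quantile normalization and without any one array but pT replicates 1 and 2, p183T replicate 1 and p183AT replicate 3 (0.75 to 0.91), and that of *Gas1* after median centring and without any one but pT replicate 3 and p183AT replicate 1 (-0.62 to -0.53). In mESCs *Gadd45g* rose by 0.54 (adjusted p = 0.0042), *Ndrg2* fell by 0.77 (adjusted p = 0.00013), and *Cdkn1a* was not called (0.08), and the response of *Cdkn1a* differed between the lines by 0.97 (adjusted p = 0.018 from limma). Beyond these, *Ccnd2* rose (0.62) and *Mlxipl* fell by 0.48 with Atoh1 in mESCs, and none of the ribosome biogenesis, metabolic, co-factor and turnover genes was called in either line.

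**Figure D5:**
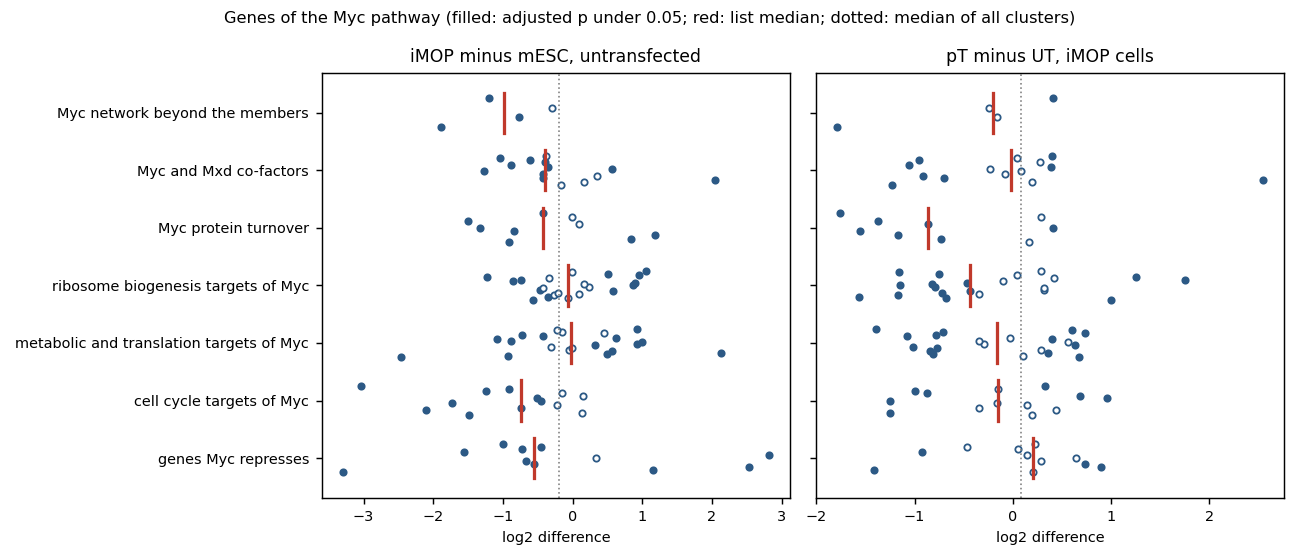
Log2 difference of each measured gene in 7 lists, iMOP minus mESC in untransfected cells on the left and pT minus untransfected in iMOP cells on the right. Filled points passed an adjusted p of 0.05, red bars are list medians and the dotted line is the median of all clusters (-0.20 and 0.09). The cell cycle list has 9 of 13 genes filled and lower on the left (6 after quantile normalization), and the ribosome biogenesis list has 11 of 21 filled and lower on the right.

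Over the 30 arrays, with the mean of each line taken off, the genes whose pattern was most like that of *Myc* among 7841 clusters were *Nab2* (Pearson r = 0.66), *Ajuba* (0.66) and *Wdr5* (0.66), at 0.02, 0.46 and 0.56 over the iMOP arrays alone and 0.81, 0.71 and 0.71 over the mESC arrays. For *Mycn* they were the histone genes *H2ac15* (0.91) and *H1f5* (0.89), and *Ppp1r37* (0.89). Within the lines alone the values for *Mycn* were 0.94, 0.91 and 0.92 over the iMOP arrays and 0.48, 0.72 and 0.63 over the mESC arrays. These arrays share treatments and hybridization, and the values are a description. Only line means were taken off, so the step of *Mycn* from UT iMOP cells (mean 4.06) to transfected ones (means 5.10 to 5.37) stays in its values. The part of that step in the likeness was not tested.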

How the data were processed

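RNA from 30 samples was hybridized to Affymetrix Mouse Gene 2.0 ST arrays. The authors' deposited values are log2 signals made by RMA in Affymetrix Expression Console 1.4.1.46, per the labels. The sources used here do not say which arrays were normalized as 1 set, and a difference in scaling between the lines moves the line comparisons. All columns were mapped to samples. Of 41345 transcript clusters, 16004 had no symbol here and were left out, and 25341 were tested, 23521 with 1 symbol and 1820 with several.

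Values were used as deposited. limma 3.58.1 (R 4.3.3; functions lmFit, contrasts.fit and eBayes) gave each test, with Benjamini-Hochberg adjustment over all tested clusters, threshold 0.05, in 22 comparisons. Lines were compared within a condition (6 arrays), vectors within a line (15 arrays), and responses between lines over all 30. The design had no replicate block. The fit was tested on simulated data. Precision is limited by the number of arrays.

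The members, gene lists and tests were chosen with earlier results of these data known. Named were the members, up to 4 called genes per list and comparison by size (all for lists under 6 genes), the 3 clusters of mean at least log2 6 most like *Myc* and *Mycn*, the vector genes and the line markers. Alternatives were other sets of arrays in the fit, a replicate block, dim clusters left out (log2 6 on 3 arrays), quantile normalization over 30 arrays, median centring, a trend in eBayes, 1 cluster per symbol, the methods' test (one-way comparison of each pair, with a fold of 1.5, or 2 between lines, or adjusted), and each replicate left out. Those on the lists were chosen after seeing the data. Promoter sequences are RefSeq's.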

Additional observations from a re-analysis of the deposited data

Results flagged for a closer look

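The response to pT (against UT) was tested for a difference between the lines over all 30 arrays, and 4 of the 9 members passed with limma. The values below are the iMOP response minus the mESC response on the log2 scale. *Mxd3* gave 1.13 (adjusted p = 0.00059) and *Mycn* 0.87 (adjusted p = 0.0093), both from a rise called in iMOP cells only. *Mxi1* gave -0.94 (adjusted p = 0.00092), with a fall called in iMOP cells and a rise called in mESCs, and its second cluster gave -0.42 (adjusted p = 0.24). *Mxd4* gave -0.55 (adjusted p = 0.044), and this call was lost without any one of 7 arrays and after quantile normalization (-0.20). The lines also differed in the transfection reagent and in what cells were sorted into, and these cannot be told apart from the line.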

How the results depend on the processing

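Between the lines, *Myc*, *Mycn*, *Mxd4* and *Mxi1* kept their direction in all 5 conditions and every alternative, and *Myc*, *Mycn* and *Mxi1* their calls. The sizes moved, and after quantile normalization *Myc* was between -1.46 and -1.0. *Max*, *Mxd1*, *Mnt* and *Mycl* depended on scaling in sign or call. After quantile normalization the difference changed sign for *Mnt* (0.18 in UT, 0.16 with pT, 0.25 with pAT, 0.34 with p183T, 0.23 with p183AT), *Mxd1* (0.12 with pT, 0.033 with p183T, 0.19 with p183AT), *Max* (0.20 with pAT, 0.18 with p183AT) and *Mycl* (0.15 with pAT). With arrays centred on their medians it changed sign for *Mnt* in UT (0.28), *Mycl* with pAT (0.016) and *Mlxip* in UT (0.019). Leaving out 1 replicate turned 3 values that were not called, *Mycl* in UT (-0.057 to 0.38) and with pT (-0.10 to 0.10) and *Mnt* in UT (-0.11 to 0.086). The cause of these changes was not tested.

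The count of members called was 4 with pT, 3 with pAT and 4 with p183T between the lines (7 in each by limma) by the methods' test at its thresholds, which found 1 for p183AT against pT in mESCs (0 by limma). Adjusted, that test called 0 for pT against UT in mESCs (4), 1 in iMOP cells (4) and 0 for p183AT against pT in iMOP cells (1). With dim clusters left out, 2 were called for pT against UT in iMOP cells (4), and 0 for p183AT against pT in iMOP cells and for the pooled Atoh1 comparison in each line (1 each), since *Mycl* was then not tested. With only the compared arrays fitted, 0 were called for p183AT against pT in iMOP cells. Leaving out 1 replicate gave 6 to 6 in UT, 6 to 8 with pT, 5 to 7 with pAT, 6 to 7 with p183T and 5 to 7 with p183AT between the lines, 2 to 4 in mESCs and 3 to 4 in iMOP cells for pT against UT, 0 to 1 for p183AT against pT in iMOP cells and for the pooled Atoh1 comparison in each line, and 3 to 4 for the difference in the pT response. The lower value for mESCs came without UT replicate 3. Under the replicate block the counts stayed within 1.5 times, with 6 members in UT. Same-numbered arrays correlated between -0.20 and 0.32 in iMOP cells and between -0.19 and 0.29 in mESCs. In each line 9 of 30 pairs lay above 0.1. No value for differently numbered arrays stands beside these, so they do not decide whether the numbers pair the samples. In transfected mESCs replicate 3 was the highest with every vector for *Myc*, *Mycn*, *Mxd4* and *Mnt*, and not for the other members. *Mycl*, and *Mycn* in iMOP cells, lie near background signal, which limits the size of their differences.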
